A study of Homo sapiens with 4 samples.

Results

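Gastric mucins and trefoil factors were examined in the AGS line, an established cell line of human gastric adenocarcinoma, with and without Helicobacter pylori lipopolysaccharide (LPS, the glycolipid of the bacterium's outer membrane). The group comprised 10 genes: the secreted gel-forming mucins MUC2, MUC5AC, MUC5B and MUC6, the membrane mucins MUC1, MUC13 and MUC20, and the trefoil factors TFF1, TFF2 and TFF3. Every probe set that the platform annotation assigns to exactly 1 of these symbols was taken, which gave 21 of the 54675 probe sets of the array, and each of the 10 genes had at least 1. The data were 4 single-colour Affymetrix arrays, 2 of untreated cells, which received fresh medium, and 2 of cells in medium with 10 µg/ml H. pylori LPS, all harvested after 8 h. The series describes 2 independent experiments, but the labels do not say which arrays shared one, so the p-values measure only the spread between these arrays. The values are log2 expression per probe set, and the number of arrays limits their precision. AGS is a single established line in monoculture, so the arrays bear on no other cell of the stomach.

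Mucins are large glycoproteins whose serine- and threonine-rich repeats carry dense O-linked sugar chains. Gel-forming mucins are secreted and polymerise into mucus, while membrane mucins stay anchored at the apical cell surface. In the stomach, surface cells make MUC5AC together with TFF1, and neck and gland cells make MUC6 together with TFF2, whereas MUC2 and TFF3 are the goblet cell products of the intestine. Trefoil factors are small cysteine-rich peptides that associate with mucins and promote epithelial repair. H. pylori adheres to sugars on gastric mucins, and TFF1 binds the core oligosaccharide of its LPS.

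Promoter sequence was at hand in RefSeq's table (GRCh38.p14) for MUC1, MUC2 and MUC13. These sequences are shown because the genes of several factors that bind such motifs were measured on the same arrays. Each line gives the 250 bases before the annotated start, 5′ to 3′ on the gene's strand, with the motifs searched for in capitals. The windows are chr1:155192916-155193165 on the minus strand for MUC1 (the first of 2 windows in the table), chr11:1074624-1074873 on the plus strand for MUC2 and chr3:124934752-124935001 on the minus strand for MUC13.
MUC1: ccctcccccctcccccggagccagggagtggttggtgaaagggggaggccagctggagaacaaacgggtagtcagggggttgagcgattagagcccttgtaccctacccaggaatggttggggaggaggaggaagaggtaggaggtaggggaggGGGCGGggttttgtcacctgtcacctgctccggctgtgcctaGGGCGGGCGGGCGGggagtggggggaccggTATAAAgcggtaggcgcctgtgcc
MUC2: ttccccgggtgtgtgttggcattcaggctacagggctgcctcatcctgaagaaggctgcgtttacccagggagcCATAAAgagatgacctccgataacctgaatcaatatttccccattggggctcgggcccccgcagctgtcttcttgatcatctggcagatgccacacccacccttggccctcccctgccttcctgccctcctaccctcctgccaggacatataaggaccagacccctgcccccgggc
MUC13: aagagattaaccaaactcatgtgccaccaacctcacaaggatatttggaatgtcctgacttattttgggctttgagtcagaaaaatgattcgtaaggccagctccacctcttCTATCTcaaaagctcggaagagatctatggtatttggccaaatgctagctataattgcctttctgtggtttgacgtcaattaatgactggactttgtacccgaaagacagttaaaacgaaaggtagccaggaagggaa
The MUC1 window held 1 TATA box (TATAAA, bases -24 to -19 from the start) and 4 GC boxes (GGGCGG, the core of the SP1 and SP3 motif), of which 3 overlapped between -54 and -41. The letters TATAAA stood in 10.7% of the 35116 promoter windows of the table, and a GC box in 42.6%. The MUC2 window held 1 CDX match (CATAAA, the reverse complement of TTTATG) at -176 to -171. Either form of TTTANG with C or T at N stood in 12.0% of windows. The MUC13 window held 1 GATA match (CTATCT, the reverse complement of AGATAG) at -138 to -133. The motif, NGATAN with A or T first and A or G last, stood in 22.3% of windows. The FOXA motif (TNTTTNC with A or G at each N, in 10.6% of windows) gave 0 matches in these 3 windows. Both strands were searched, and matches are letters in a window, not evidence of binding. GC content was 66.0% for MUC1, 59.6% for MUC2 and 41.6% for MUC13, against a median of 58.0% over all windows.

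To judge which members stood above array background, a level was taken from genes of other organs (hormones, eye, muscle, sperm, blood and similar), of which 51 were measured by 112 probe sets. The 95th percentile of their means over the 4 arrays was 8.32, here called the reference level, and their median was 5.75. Of all 54613 probe sets other than controls, 23.8% lay above 8.32. Brightness also depends on the probes, so the level is a gauge of background and gives no order of transcript amounts between genes. By it, 3 of the 21 probe sets stood above: the TFF1 probe set and 2 of the 3 MUC1 probe sets. The other 18, including every probe set of MUC2, MUC5AC, MUC5B, MUC6, MUC13, MUC20, TFF2 and TFF3, lay below. The nearest were 2 MUC1 probe sets inside, at means of 9.96 and 10.22, and probe sets of MUC5AC (7.81) and MUC13 (7.64) outside. The count was 6 at the 90th percentile (7.30), which added 2 MUC5AC probe sets and 1 of MUC13, and 1 at the 99th (11.8), which left TFF1. Of the 6 reference probe sets above 8.32, 3 measured KRT10, 2 MBP and 1 SFTPB. Without those 3 genes, a choice made after their values were seen, the level was 7.20 and the count 7, with both MUC13 probe sets and 2 of MUC5AC added.

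**Figure D1:**
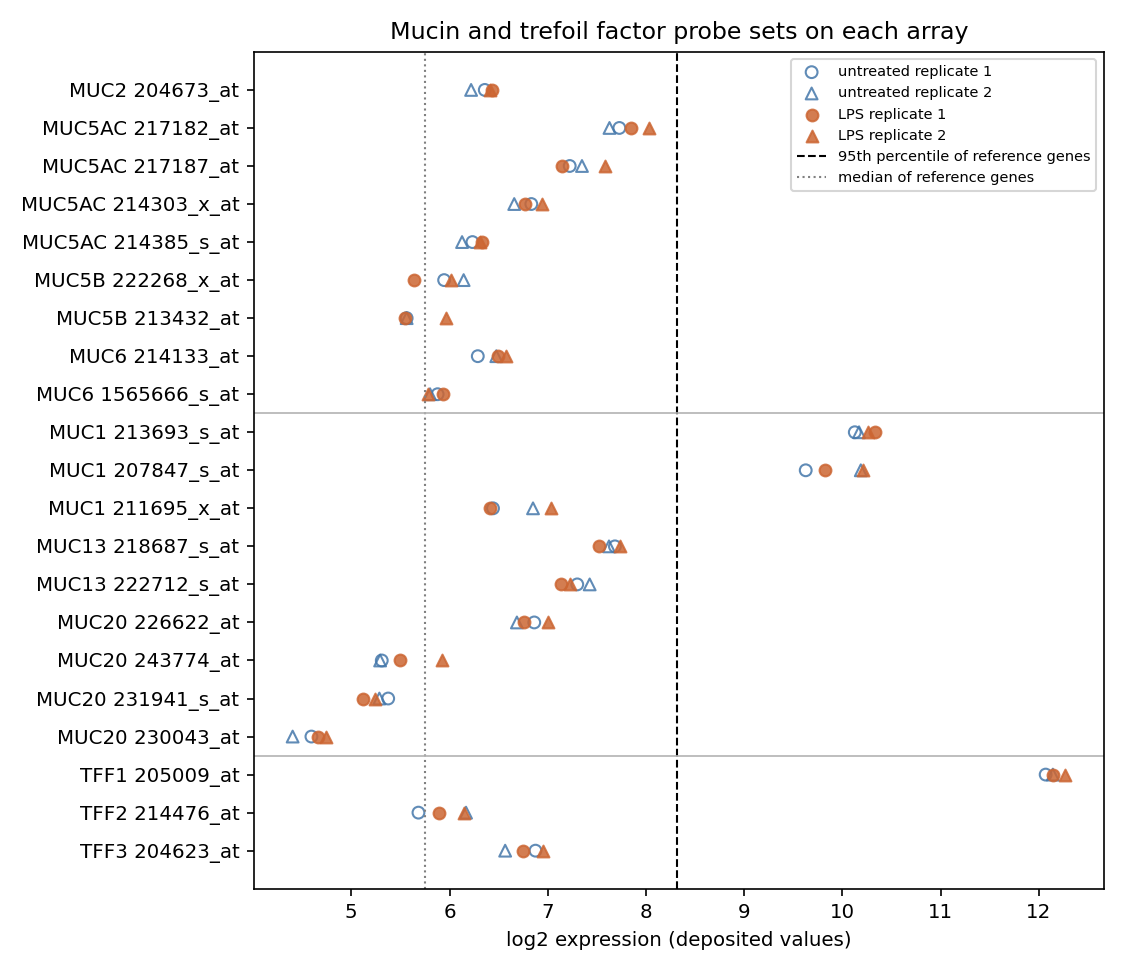
Log2 expression of the 21 mucin and trefoil factor probe sets on each array; open blue symbols are untreated and filled orange symbols LPS-treated cells, circles replicate 1 and triangles replicate 2. TFF1 and 2 MUC1 probe sets lie right of the dashed line, the 95th percentile of the reference genes at 8.32, and the dotted line is their median of 5.75.

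TFF1 was the trefoil factor that stood clear of background. Its probe set read 12.07 and 12.14 in untreated cells and 12.15 and 12.27 with LPS, at the 97.9th percentile of all probe sets. Both treated arrays lay above both untreated arrays, by a margin smaller than the spread within either group. The difference was 0.10 ± 0.08 on the log2 scale (SE, n = 2 per group), or 1.07-fold (95% interval 0.93 to 1.23), and did not pass the test (limma, adjusted p = 1). The interval leaves out a change of 1.5-fold in this probe set.

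TFF2 and TFF3 lay below the reference level. TFF2, the trefoil peptide of gastric neck cells, read 5.68 and 6.17 in untreated cells and 5.90 and 6.14 with LPS. The groups overlapped, and the arrays numbered 2 were the higher ones in both. TFF3, the intestinal trefoil peptide, read 6.88 and 6.57 untreated and 6.75 and 6.95 with LPS, again with overlap. The LPS minus untreated difference was 0.09 ± 0.19 for TFF2 and 0.13 ± 0.15 for TFF3 (SE, n = 2 per group; limma, adjusted p = 1 for both). At this brightness the values may be background, so these differences do not bound a change in transcript. The same limit holds for the differences, ratios and intervals of every other member probe set below the reference level.

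MUC1, a membrane mucin whose cytoplasmic tail takes part in signalling, was measured by 3 probe sets that did not behave alike. Probe set 213693_s_at read 10.13 and 10.17 in untreated cells and 10.34 and 10.26 with LPS, with no overlap of the groups and a difference of 0.15 ± 0.10 (SE; ratio 1.11, 95% interval 0.94 to 1.31). Probe set 207847_s_at read 9.63 and 10.19 untreated and 9.82 and 10.21 with LPS, a difference of 0.11 ± 0.22 (ratio 1.08, 0.75 to 1.56). On that probe set the arrays separated by replicate number instead of treatment. The dimmer 211695_x_at read 6.44 and 6.85 untreated and 6.41 and 7.03 with LPS, and it separated the arrays in the same way. The 3 did not pass the test (limma, adjusted p = 1 for each).

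The separation by number was larger, for these 2 MUC1 probe sets, than the difference between same-numbered treated and untreated arrays. Replicate 2 minus replicate 1 was 0.56 in untreated and 0.39 in treated cells for 207847_s_at, 0.41 and 0.62 for 211695_x_at, but 0.04 and -0.08 for 213693_s_at. TFF2 had 0.48 and 0.25, MUC5B 222268_x_at 0.20 and 0.38, and MUC5AC 217187_at 0.12 and 0.44. On these probe sets too, both arrays numbered 2 lay above both numbered 1. The arrays also differed technically by number: the 18S ribosomal RNA control probe sets averaged 10.07 and 9.89 on the untreated and treated arrays numbered 1 and 8.12 and 7.98 on those numbered 2. The 3′ minus 5′ log2 difference of the ACTB control was 1.09 and 1.04 on the arrays numbered 1 and 0.94 and 0.76 on those numbered 2. That of the GAPDH control did not separate by number, with 0.26 and 0.39 on the arrays numbered 1 and 0.36 on each numbered 2. The part of the 18S or ACTB differences in the MUC1, TFF2, MUC5B and MUC5AC values was not tested. Over all members, 8 of 21 probe sets (38.1%) were higher on both arrays numbered 2, near the 36.5% of all probe sets tested, and 3 (14.3%) were lower on both, against 28.1% of all.

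**Figure D2:**
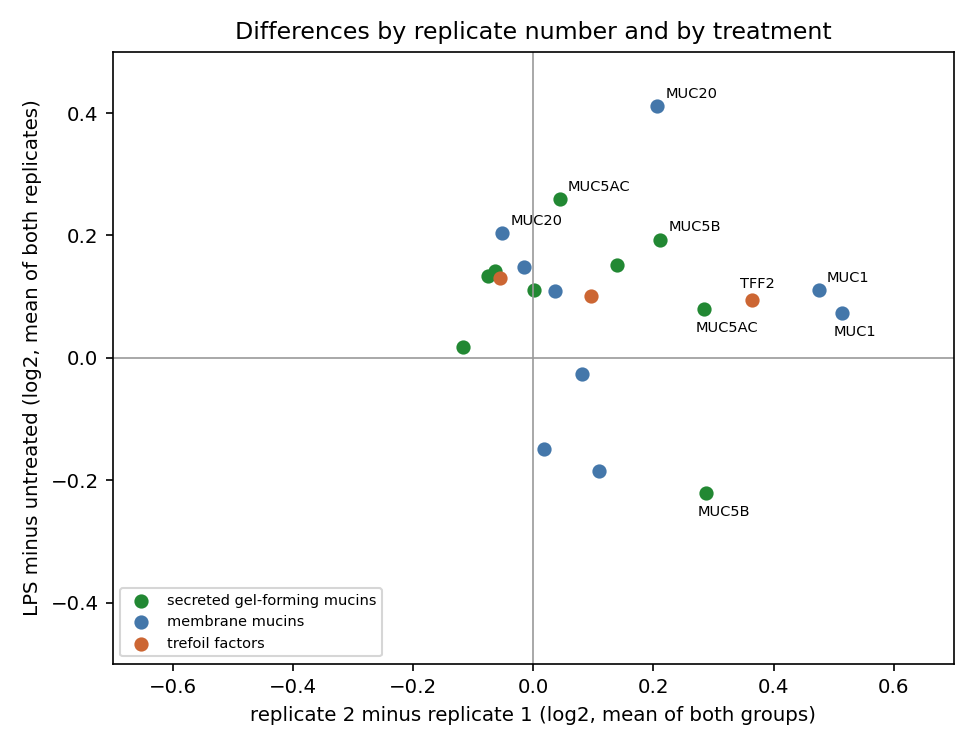
Each point is 1 of the 21 probe sets; the horizontal axis is the log2 difference between replicates 2 and 1 averaged over both groups, the vertical axis LPS minus untreated. Points of MUC1 (2 probe sets) and TFF2 lie far to the right at small treatment differences of 0.07 to 0.11, and the uppermost point is MUC20 at 0.41.

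The other membrane mucins lay below the reference level. MUC13, a membrane mucin of gastrointestinal epithelium with EGF-like domains, read 7.68 and 7.62 untreated against 7.52 and 7.74 with LPS on 218687_s_at. On 222712_s_at it read 7.30 and 7.43 against 7.13 and 7.23, with both treated arrays lower. The differences were -0.03 ± 0.13 and -0.19 ± 0.12 (SE, n = 2 per group; limma, adjusted p = 1). MUC13 was the only member gene whose probe sets all gave an estimate below 0. Without LPS replicate 1, however, the difference of 218687_s_at was 0.085.

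MUC20, a membrane mucin reported to associate with the receptor kinase MET, was measured by 4 probe sets, all dim, whose differences ran from -0.15 to 0.41. Probe set 243774_at had the largest difference of all members, with 5.31 and 5.29 untreated against 5.50 and 5.93 with LPS. Its difference was 0.41 ± 0.16 (SE; ratio 1.33, 95% interval 1.02 to 1.74), the only one of the 21 intervals that left out 0 on the log2 scale, at an unadjusted p of 0.0406 (limma, adjusted p = 1). The value rested mainly on LPS replicate 2: without that array the difference was 0.20, and without LPS replicate 1 it was 0.63. The other MUC20 probe sets differed by 0.20 ± 0.10 (230043_at), 0.11 ± 0.14 (226622_at) and -0.15 ± 0.11 (231941_s_at), and the treated arrays of 231941_s_at were both lower than the untreated ones. The 4 probe sets thus disagreed in sign.

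Among the secreted gel-forming mucins, MUC5AC, the main mucin of gastric surface mucus, had the values nearest to the reference level. Its probe set 217182_at read 7.73 and 7.63 in untreated cells and 7.84 and 8.03 with LPS. Both treated arrays were higher, and the difference was 0.26 ± 0.13 (SE; ratio 1.20, 95% interval 0.96 to 1.48; limma, unadjusted p = 0.0879, adjusted p = 1). The remaining MUC5AC probe sets differed by 0.08 ± 0.17 (217187_at), 0.11 ± 0.13 (214303_x_at) and 0.14 ± 0.11 (214385_s_at), and the arrays of the first of these 3 ran from 7.14 to 7.59 with LPS replicates at either end. All 4 estimates were above 0, but these probe sets share a target and are not separate observations, and 217187_at was at -0.14 without LPS replicate 2.

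MUC2, the gel-forming mucin of intestinal goblet cells, read 6.36 and 6.22 untreated and 6.43 and 6.42 with LPS. The treated arrays were both higher, by 0.13 ± 0.12 (SE; ratio 1.10, 95% interval 0.90 to 1.34; limma, adjusted p = 1). As for TFF2 and TFF3, values this dim may be background, and the interval does not bound a change in MUC2 transcript. MUC6, the mucin of gastric glands, read 6.29 and 6.48 against 6.49 and 6.58 on 214133_at, a difference of 0.15 ± 0.13, and 0.02 ± 0.12 on 1565666_s_at. MUC5B, a gel-forming mucin best known from airways and salivary glands, gave 5.56 on both untreated arrays and 5.55 and 5.97 with LPS on 213432_at, a difference of 0.19 ± 0.16. Its second probe set, 222268_x_at, read 5.95 and 6.14 untreated and 5.64 and 6.01 with LPS, a difference of -0.22 ± 0.16. The estimates for MUC5B therefore pointed in opposite directions, and none of the 9 probe sets of gel-forming mucins passed the test.

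**Figure D3:**
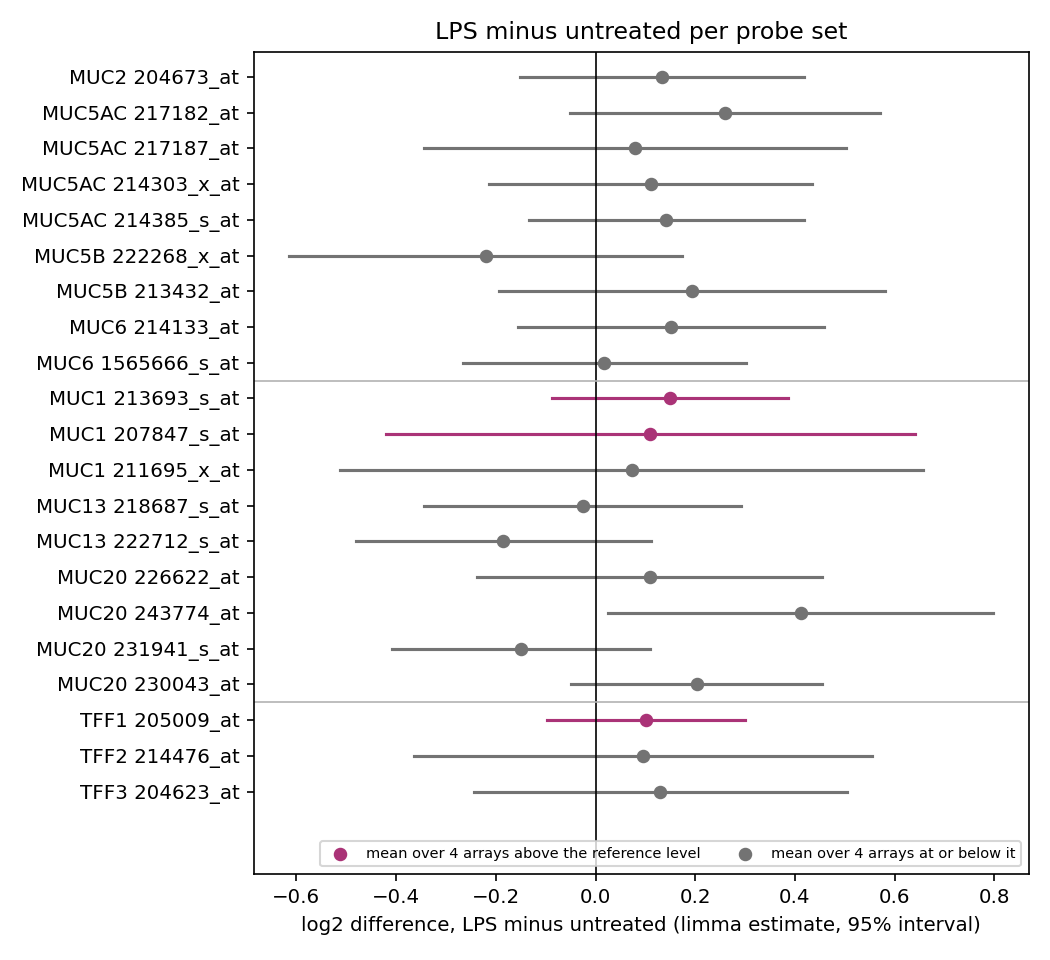
LPS minus untreated log2 difference of each probe set with its 95% interval from limma; purple marks the 3 probe sets above the reference level, grey the 18 below it. Of the 21 intervals, 20 include 0, and the exception is MUC20 243774_at.

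Tested across the whole table, 0 of the 21 member probe sets passed the adjusted threshold of 0.05 in either direction, as did 0% of the 54613 probe sets tested (limma, smallest adjusted p = 1). At an unadjusted p under 0.05 there was 1 member, MUC20 243774_at, or 4.76%, against 2.6% of all probe sets. In 8 of the 21 member probe sets both treated arrays lay above both untreated arrays, against 17.6% of all probe sets. In 2 of the 21 both lay below, against 11.9%. Together, 47.6% of the member probe sets and 29.5% of all probe sets had groups that did not overlap. The median difference of the members was 0.11, and 17 of 21 lay above 0 (81.0%). Over all probe sets the median was 0.02 and 55.6% lay above 0, and over those below the reference level 0.02 and 57.5%. The 21 probe sets measure 10 genes, and their median was 0.20 without LPS replicate 1, 0.02 without LPS replicate 2 and 0.06 without untreated replicate 1. The median 95% interval of a member reached 0.32 to either side of its estimate. An exact permutation test of 1 probe set, 2 arrays against 2, cannot give a p under 0.33.

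The labelled cell type was checked against markers. Counted by gene, on the brightest probe set of each, 38.1% of all 19775 genes with a probe set of their own lay above the reference level, and the counts of genes in lists are to be read against that share. Of 15 epithelial markers measured, 12 lay above 8.32, with the adhesion molecule EPCAM at 13.52 and the keratins KRT8, KRT18 and KRT19 at 13.40, 14.40 and 12.51. Those not above it were CDH1, encoding E-cadherin, at 8.26 and the keratins KRT7 and KRT20 at 7.81 and 4.18. Leukocyte markers were above it in 1 of 12 (the kinase LYN, 9.44), with PTPRC at 5.02 and CD14 at 4.88. Fibroblast and endothelial markers were above in 2 of 14 (COL1A1 at 8.63 and ACTA2 at 8.37), with DCN, LUM and CDH5 at 6.35, 3.76 and 4.82.

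Markers of gastric mucous cells mostly lay with the dim members. Of 14 surface and neck cell markers, 1 stood above the reference level, the aspartic protease CTSE at 12.94, and the gastrokines GKN1 and GKN2, secreted with TFF1 by surface cells, read 4.49 and 6.06. Of the chief, parietal and endocrine cell markers 0 of 11 stood above. Intestinal markers did so in 5 of 19: the brush-border protein VIL1 (10.47), the cadherin CDH17 (10.46), LYZ (9.90), CEACAM5 (9.63) and the homeobox factor CDX2 (8.88). The goblet cell products CLCA1, ZG16 and FCGBP read 5.96, 6.08 and 6.72. None of the probe sets of these 3 lists passed the test, with median gene differences of 0.09, 0.04 and -0.003.

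**Figure D4:**
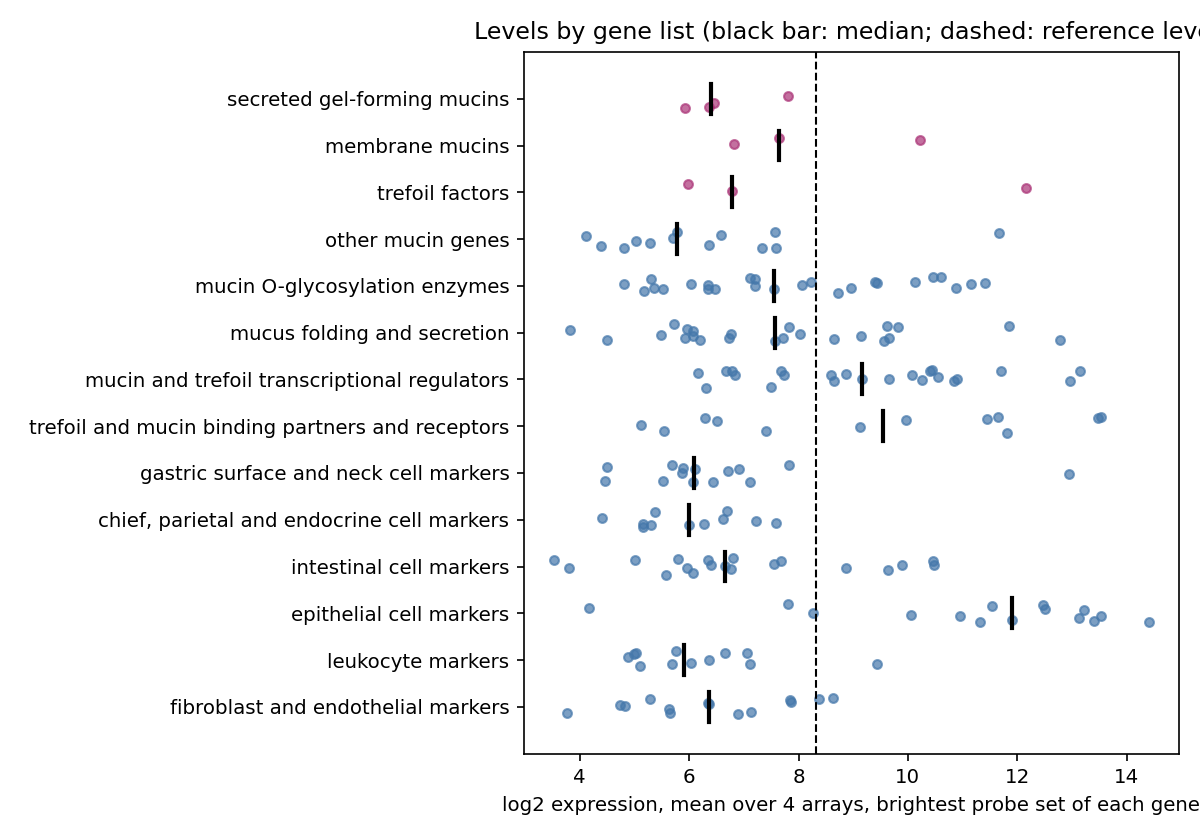
Mean log2 expression over 4 arrays of the brightest probe set of each gene, by gene list; purple points are the mucins and trefoil factors, black bars the list medians and the dashed line the reference level of 8.32. Of the member genes only MUC1 and TFF1 lie right of the line, as do 12 of 15 epithelial markers and 1 of 14 gastric surface and neck cell markers.

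Of the other mucin genes, 1 of 13 measured stood above the reference level: CD164, a small sialomucin of many cell types, at 11.66. The large membrane mucins MUC4, MUC12, MUC16 and MUC17 read 6.36, 5.78, 5.03 and 6.59. MUC3A read 7.44 and 7.48 untreated and 7.55 and 7.83 with LPS, a difference of 0.24 ± 0.14 (SE, n = 2 per group; limma, adjusted p = 1). The median difference of the 13 genes was -0.002, and 0 of their 28 probe sets passed the test.

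Of 25 enzymes that build mucin O-glycans, 10 lay above the reference level, near the share of all genes (38.1%), among them the initiating transferases GALNT1 (10.13), GALNT2 (10.61), GALNT3 (10.45) and GALNT7 (11.15), the core 1 enzyme C1GALT1 (11.42) and the branching enzyme GCNT3 (10.88). A4GNT, which makes the terminal sugar of gland mucins, read 5.53. GALNT6 read 9.13 and 9.32 untreated and 9.70 and 9.45 with LPS, a difference of 0.35 ± 0.14 (SE; limma, unadjusted p = 0.0407, adjusted p = 1), and its other probe set differed by 0.19. C1GALT1 was lower on both treated arrays by -0.17 ± 0.09, as was GALNT3 by -0.22 ± 0.13 (limma, adjusted p = 1 for each). No probe set of the 53 in the list passed the test, 2 had an unadjusted p under 0.05, and the median gene difference was 0.04.

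Genes of mucus folding and secretion lay above the level in 8 of 23, also near the share of all genes, including the vesicle-tethering substrate MARCKS (12.79), the unfolded protein response factor XBP1 (11.84) and the goblet cell factor SPDEF (8.65). AGR2, the disulphide isomerase needed for mucin folding, read 6.20. SPDEF differed by 0.11 ± 0.11 (SE), none of the 50 probe sets passed (limma, adjusted p = 1), and the median gene difference was 0.01.

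Transcription factors known to act on mucin and trefoil genes were above the level in 15 of 23. They included KLF4 (12.96), SP3 (11.69), GATA6 (10.90), STAT3 (10.55), SP1 (10.44), GATA4 (10.26), FOXA3 (10.07) and CDX2. SOX2, a factor of the gastric epithelium, read 8.96 and 8.65 untreated and 8.38 and 8.41 with LPS. Both treated arrays were lower, by -0.41 ± 0.14 (SE; limma, unadjusted p = 0.0254, adjusted p = 1), with -0.18 to -0.03 on the other 3 probe sets. SP3 differed by -0.25 ± 0.10, GATA6 by -0.18 ± 0.10 and STAT3 by 0.26 ± 0.13, and their other probe sets included estimates of the opposite sign. The groups overlapped for CDX2, with a difference of -0.003. None of the 64 probe sets passed, and the median gene difference was -0.003.

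Among proteins that bind trefoil factors or mucins, 7 of 12 genes lay above the level. LGALS3, the galectin that binds mucin sugars, stood at 13.48, ITGB1 at 13.52, MET at 11.82 and the receptor kinases EGFR, ERBB2 and ERBB3 at 11.44, 9.97 and 9.12. The proposed trefoil receptors CXCR4, ACKR3 and LINGO2 read 6.30, 5.55 and 5.11. EGFR read 11.39 and 11.26 untreated and 11.73 and 11.38 with LPS, a difference of 0.23 ± 0.13 (SE; limma, adjusted p = 1) with overlapping groups, and its 8 other probe sets ran from -0.09 to 0.17. CTNNB1, encoding beta-catenin, read 11.88 and 11.72 untreated and 11.18 and 11.78 with LPS, a difference of -0.31 ± 0.19 (SE; limma, adjusted p = 1). Of the 4 arrays, the treated array numbered 1 was the lowest for it and the other treated array lay between the untreated ones, and its other 2 probe sets differed by -0.39 and 0.01. No probe set of the 46 passed, and the median gene difference was 0.04.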

How the data were processed

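Total RNA of 4 cultures was labelled with biotin and hybridised to 1-colour Affymetrix arrays, per the labels' protocols. The deposited table holds the authors' log2 values for 54675 probe sets on each array. Of the tools, MAS5 and RMA are named per the submitters' processing notes, with no version, and the range of the values has the form of RMA output. How background was corrected is not given in the sources used here. Folds of dim probe sets are likely to be understated on this scale. The 62 control probe sets were left out, which left 54613; 41091 have 1 symbol, 1801 several and 11721 none, and 0 symbols changed through the current gene table. All were fitted in R 4.3.3 by limma 3.58.1 (lmFit, then a trended eBayes, two-sided, without covariates) and Benjamini-Hochberg adjustment over 54613 probe sets. The fit was also run on simulated data whose errors were independent between arrays. Deviations of same-numbered arrays here correlated (r = 0.54 across probe sets), so that run does not cover this feature of the data. Of the 21 member probe sets, 10 end in _x_at or _s_at and can share signal with related genes. The members and the gene lists were chosen with earlier results of these data known. Every member probe set is named; from the other lists, up to 4 genes with the largest statistic above the reference level and up to 4 brightest were picked by a rule, of which the text gives a part, and further genes were named for their role after their values were seen. Levels of listed genes are those of the brightest probe set. Figures were drawn with matplotlib 3.10.9.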

Additional observations from a re-analysis of the deposited data

How the results depend on the processing

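The count of probe sets past the adjusted threshold stayed at 0, for the members and in both directions over the whole table, under quantile normalization, no intensity trend, the filter at median expression (13 members left), only probe sets with 1 symbol, the brightest probe set per gene, no _x_at or _s_at probe sets (11 members left), the replicate block and each array left out in turn. Where 1 array was left out, the lone array of its group was assumed to vary like the others. The median member difference ran from 0.022 to 0.20 over the arrays left out and from 0.11 to 0.13 under the other settings. Of 202 values of single member probe sets under other settings, 187 kept their sign and 15 did not. Only quantile normalization and leaving out an array could change a probe set's difference. The other settings keep that difference by construction, so the 187 overstate how stable the signs were. With 1 array left out, the sign turned for MUC1 207847_s_at (-0.17 to 0.39) and 211695_x_at (-0.24 to 0.38), TFF2 (-0.15 to 0.34), TFF3 (-0.025 to 0.28), MUC5AC 217187_at (-0.14 to 0.30), MUC5B 213432_at (-0.019 to 0.40), MUC6 1565666_s_at (-0.061 to 0.10), MUC13 218687_s_at (-0.14 to 0.085) and MUC20 226622_at (-0.015 to 0.23); the cause was not tested. MUC6 1565666_s_at was also at -0.0015 with quantile normalization. Member probe sets above the reference level numbered 6 at the 90th percentile, 1 at the 99th and 7 without KRT10, MBP and SFTPB. Those changes followed from the construction of the level. The number was 4 with no _x_at or _s_at reference probe sets, and 3 with quantile normalization and with each array left out.

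With the replicate number as a block, 0 members and 0 probe sets passed (limma, smallest adjusted p = 0.6855), the members' median was 0.11, and 3579 probe sets had an unadjusted p under 0.05, against 1419 without it. The labels do not say that a number marks a shared experiment. The deviations of same-numbered arrays correlated at r = 0.54 across probe sets, which are not independent replicates, and at 0.46 across the members. With 1 probe set per gene the smallest adjusted p was 0.299.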
